A study of Mus musculus with 8 samples.

Results

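Colony stimulating factors and their receptors were compared between the livers of 4 transgenic and 4 control mice, as 10 genes chosen by symbol. They are the ligands Csf1, Il34, Csf2, Csf3, Flt3l and Kitl and the receptor chains Csf1r, Csf2ra, Csf2rb and Csf2rb2. All 10 were measured, each through 1 probe set, out of 19938 genes in all. The transgenic mice carry constitutively active IKK2, the kinase that switches on the transcription factor NF-kB, under the LAP promoter, which is active in hepatocytes. The controls are labelled wild type. Both groups are 4 weeks old and share a mixed C57BL/6 and NMRI stock, backcrossed to C57BL/6 at least 4 times. Each liver was read on its own Affymetrix array, and every value is a log2 expression value of the whole organ. Values of 4 livers are given in the order of their replicate numbers.

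Colony stimulating factors are secreted or membrane-bound cytokines that keep blood cell precursors alive and drive them into the macrophage, granulocyte and dendritic cell lineages. Csf1 and Il34 share the receptor tyrosine kinase Csf1r, on which Kupffer cells, the macrophages of the liver, depend. Csf2 (GM-CSF) binds a specific alpha chain, Csf2ra, joined to the signalling chain Csf2rb, which the receptors for interleukin 3 and interleukin 5 also use. Mice carry a further beta chain, Csf2rb2, specific to interleukin 3. Several of the ligand genes are known targets of NF-kB in other cells.

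Csf1 and all 4 receptor chains rose in transgenic liver, and the other 5 ligands did not pass the test. The rises were 3.51-fold for Csf2rb, 3.19-fold for Csf1, 3.11-fold for Csf1r, 2.34-fold for Csf2rb2 and 1.33-fold for Csf2ra. Thus 5 of the 10 members were called higher and 0 lower at an adjusted p under 0.05 (limma, adjusted over all probe sets tested). Among all genes 6.34% were called, 4.67% as higher and 1.67% as lower. The median log2 fold change of the members was 0.40, against -0.074 for all genes tested. A lower signal from an organ can come from fewer cells of a type or from less RNA per cell, and a higher one from the reverse, and arrays of whole liver cannot tell these apart.

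**Figure D1:**
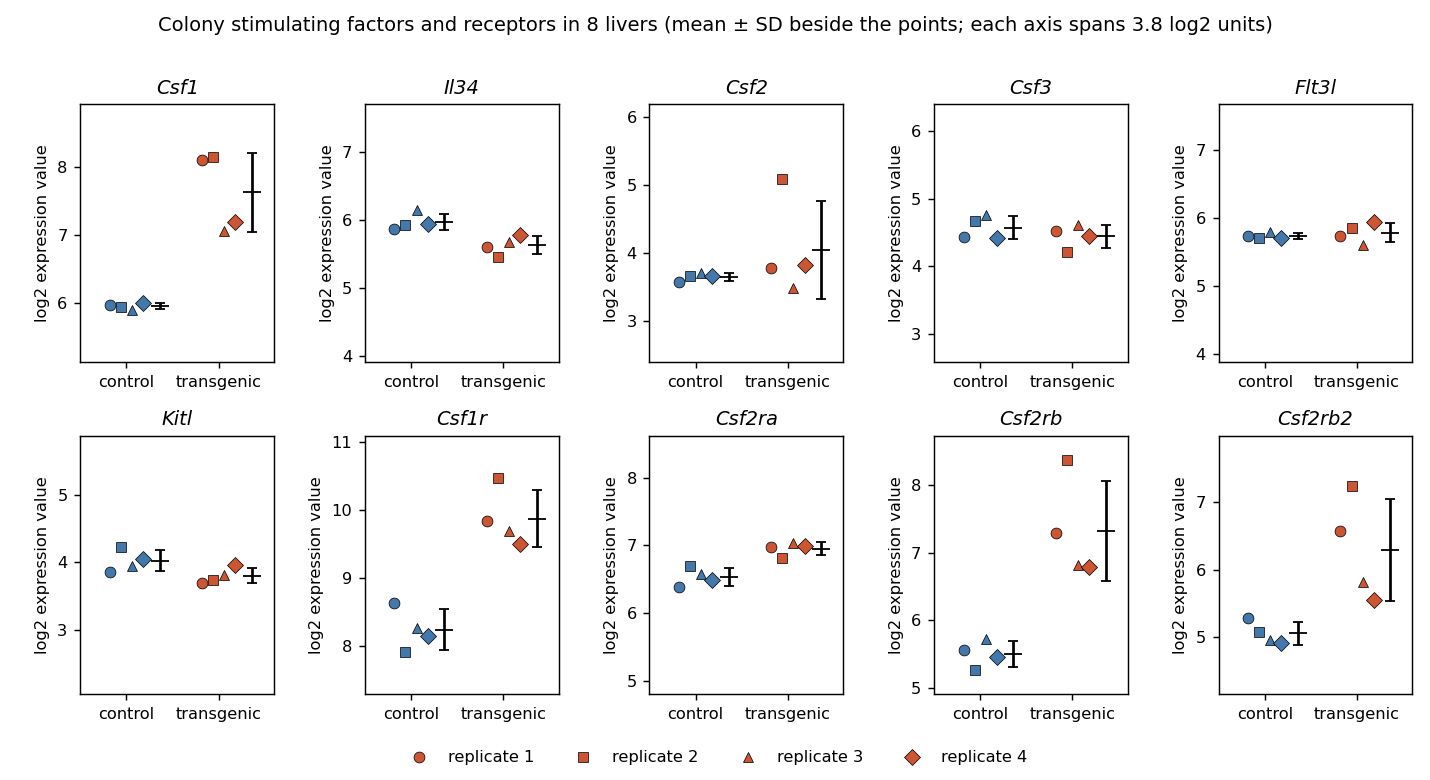
Log2 expression value (vertical axis) of each member in the 4 control (blue) and 4 transgenic (orange) livers, with symbols for the replicate number and the group mean ± SD beside the points. Csf1, Csf1r, Csf2rb, Csf2rb2 and Csf2ra lie above all controls in every transgenic liver, as do 11.2% of all genes. Csf2 stands out in transgenic replicate 2 at 5.09.

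The start-site regions of 3 members that rose and of 1 that did not are printed here because they hold, or lack, short motifs of factors named with these genes. RefSeq windows of 300 bases (assembly GRCm38.p6) matched 6 of the 10 members, and Il34, Csf3, Csf1r and Csf2rb had no entry. The windows of Flt3l and Kitl, which did not pass the test either, are described below but not printed. Capitals mark matches, on either strand, to the NF-kB consensus or to GAGGAAG, the core recognised by the myeloid factor PU.1. The windows are Csf1 at chr3:107760420-107760719, Csf2 at chr11:54249850-54250149, Csf2ra at chr19:61228369-61228668 and Csf2rb2 at chr15:78305672-78305971, all on the minus strand and shown 5′ to 3′ in the direction of the gene.
Csf1: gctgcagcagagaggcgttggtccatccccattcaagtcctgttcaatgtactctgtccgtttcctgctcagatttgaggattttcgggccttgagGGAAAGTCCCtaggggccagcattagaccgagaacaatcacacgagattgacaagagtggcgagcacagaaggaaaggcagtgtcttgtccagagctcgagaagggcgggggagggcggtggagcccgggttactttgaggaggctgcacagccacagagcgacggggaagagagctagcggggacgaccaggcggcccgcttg
Csf2: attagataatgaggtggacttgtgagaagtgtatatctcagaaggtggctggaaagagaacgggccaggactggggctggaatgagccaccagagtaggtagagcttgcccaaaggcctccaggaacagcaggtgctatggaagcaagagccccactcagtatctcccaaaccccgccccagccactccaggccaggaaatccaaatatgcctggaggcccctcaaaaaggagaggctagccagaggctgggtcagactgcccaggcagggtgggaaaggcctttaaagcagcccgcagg
Csf2ra: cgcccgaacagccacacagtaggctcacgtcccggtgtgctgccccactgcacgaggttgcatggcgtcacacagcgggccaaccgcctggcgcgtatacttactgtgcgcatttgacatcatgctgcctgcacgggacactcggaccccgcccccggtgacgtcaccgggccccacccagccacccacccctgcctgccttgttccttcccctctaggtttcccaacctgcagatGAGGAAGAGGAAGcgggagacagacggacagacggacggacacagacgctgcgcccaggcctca
Csf2rb2: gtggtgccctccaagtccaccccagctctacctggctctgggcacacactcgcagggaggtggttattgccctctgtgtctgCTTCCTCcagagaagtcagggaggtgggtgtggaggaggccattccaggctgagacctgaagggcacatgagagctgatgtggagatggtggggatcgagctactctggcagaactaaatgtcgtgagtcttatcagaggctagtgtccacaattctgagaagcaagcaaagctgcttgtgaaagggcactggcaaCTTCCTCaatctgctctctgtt

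The Csf1 window matches the NF-kB consensus once, with the letters GGGACTTTCC on the strand opposite to the gene, from 154 bases before the start site. Of 32851 RefSeq windows of this length, 8.46% match the consensus on either strand, and 51 (0.155%) hold these exact letters. The letters were copied from the Csf1 window, and an exact string is by construction rarer than the consensus that includes it. The smaller share therefore does not mark Csf1 as unusual. Among the members, the consensus also matches in the window of Kitl, which did not pass the test, and not in those of Csf2, Flt3l, Csf2ra and Csf2rb2. GAGGAAG occurs 2 times in the Csf2ra window, where the copies overlap by a base, and 2 times in the Csf2rb2 window, both on the opposite strand. It is found in 13.6% of all windows and in none of those of Csf1, Csf2, Flt3l and Kitl. The motifs were chosen after the sequences were seen, and a match is a description of letters, not a measured binding site.

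Among the ligands, Csf1, the main growth factor of macrophages, was the one that rose. It read 8.10, 8.14, 7.06 and 7.19 in the transgenic group, and 5.97, 5.93, 5.90 and 6.00 among controls. The transgenic livers thus formed a higher and a lower pair, whereas the controls spanned 0.106 log2 units, and the gap between the groups was 1.06. The log2 fold change was 1.68 (SE 0.24, adjusted p = 0.00761), with group means of 7.62 ± 0.58 and 5.95 ± 0.045 (SD, n = 4 each). Csf1 kept its call in all 17 other settings, with log2 fold changes from 1.42 to 1.86. Ikbkb, the gene of IKK2, was higher in every transgenic liver and showed the same pairing. Its readings were 8.995, 9.09, 8.38 and 8.38 in the transgenic livers and 7.79, 7.44, 7.85 and 7.77 in the controls. The order was not particular to these 2 genes. Transgenic replicates 1 and 2 also lay above 3 and 4 for Csf1r, Csf2rb and Csf2rb2, but not for the other members. The means of the macrophage, monocyte, dendritic cell and T and NK cell marker lists below showed it too, and the other marker lists did not. Whether these orders are linked, and whether the Ikbkb probe set reads the transgene, was not tested.

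Il34, the second ligand of Csf1r, read 5.60, 5.46, 5.68 and 5.77 in the transgenic group, and 5.87, 5.93, 6.15 and 5.94 among controls. Every transgenic liver lay below every control, by a gap of only 0.093. The log2 fold change was -0.34 (SE 0.098, adjusted p = 0.0624), which did not pass. Groups that do not overlap were common, at 22.4% of all genes, with 11.2% in the lower and 11.2% in the higher direction. Il34 passed after quantile normalization (adjusted p = 0.0451) and without transgenic replicate 4 (0.0451), and its adjusted p lay between 0.0451 and 1.00 in the 17 settings. The change of Csf1 exceeded that of Il34 by 2.02 log2 units, measured as the difference between the genes within each array. That difference ran from 1.38 to 2.68 in the transgenic livers and from -0.25 to 0.10 in the controls (exact permutation test, two-sided, p = 0.0286, adjusted p = 0.0714 over 5 such differences). The smallest p that 4 arrays against 4 allow is 0.0286. In every transgenic liver Csf1 lay above all controls and Il34 below all controls. This p therefore follows from those readings and is not further evidence. The adjusted value still missed the threshold.

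Csf2 and Csf3, the growth factors of granulocytes and of activated macrophages, did not pass. Csf2 read 3.77, 5.09, 3.48 and 3.82 in the transgenic group, against 3.56 to 3.70 in the controls. A single liver, transgenic replicate 2, stood 1.45 above the control mean, while the other transgenic livers stood at 0.13, -0.17 and 0.17. The log2 fold change was 0.40 (SE 0.29, adjusted p = 0.339) and 0.045 without that liver (adjusted p = 0.798). Csf3 read 4.52, 4.21, 4.60 and 4.45 in the transgenic livers and 4.44, 4.67, 4.76 and 4.42 in the controls, with overlapping groups and a log2 fold change of -0.13 (adjusted p = 0.446). Control readings of Csf2 and Csf3 lay under every array median, the lowest of which was 4.88. No background was measured, so whether these probe sets read above it is not known.

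Flt3l drives dendritic cell development through Flt3, and Kitl (stem cell factor) acts on progenitors and mast cells through Kit. Flt3l read 5.74, 5.86, 5.61 and 5.94 in the transgenic group, and 5.70 to 5.79 in the controls. The groups overlapped and the log2 fold change was 0.051 (95% confidence interval -0.15 to 0.25, adjusted p = 0.692). Kitl read 3.70, 3.74, 3.82 and 3.96 in the transgenic livers and 3.86, 4.23, 3.95 and 4.06 in the controls, also with overlap. Its log2 fold change was -0.22 (95% confidence interval -0.45 to 0.0073, adjusted p = 0.160), and all 8 readings lay under every array median.

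**Figure D2:**
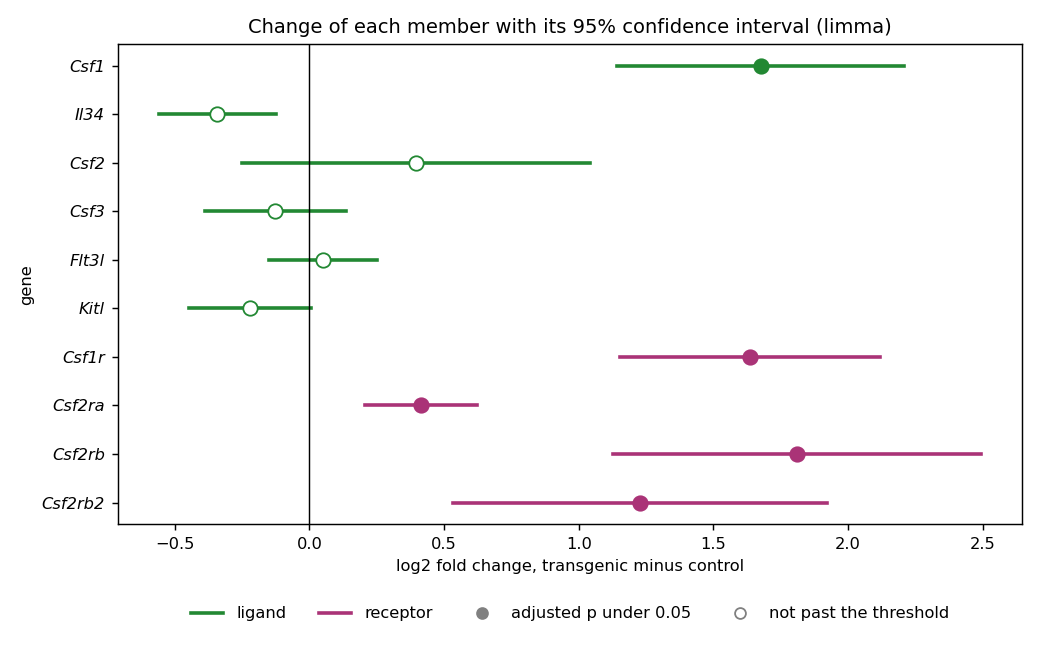
Log2 fold change of each member (point, horizontal axis, transgenic minus control) with limma's 95% confidence interval (line), green for ligands and purple for receptors, filled where the adjusted p was under 0.05. The 4 receptor chains and Csf1 are filled, and Csf2ra at 0.41 has the smallest change among them.

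The receptor Csf1r marks macrophages and monocytes. It read 9.84, 10.48, 9.69 and 9.50 in the transgenic group, and 8.64, 7.91, 8.27 and 8.14 among controls. All transgenic livers lay above all controls by at least 0.86, with replicate 2 the highest. Its log2 fold change was 1.64 (SE 0.22, adjusted p = 0.00583), and the call held in all 17 other settings, between 1.34 and 1.77. The change of Csf1 exceeded that of Csf1r by 0.039 log2 units, well inside the spread between arrays (exact permutation test, p = 0.83). This difference ran from -2.63 to -1.73 in the transgenic livers and from -2.67 to -1.98 in the controls. Its sign turned without transgenic replicate 1 or without control replicate 1, at -0.13 and -0.088.

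Csf1r was set beside 14 Kupffer cell and macrophage markers. Of these markers 11 rose and 0 fell, beside 4.67% and 1.67% of all genes, and their median log2 fold change was 1.57. The lysozyme Lyz2 rose by 2.84 and the pore-forming protein Mpeg1 by 2.04. Within an array Csf1r exceeded the mean of the marker list by 0.25 to 0.59 in transgenic livers and by 0.10 to 0.58 in controls. The change of Csf1r was 0.066 log2 units larger than that of the list mean (exact permutation test, p = 0.629, adjusted p = 0.786), and -0.036 without control replicate 2. A p of this size does not show that the changes were equal.

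Csf2rb, the shared signalling chain for Csf2, interleukin 3 and interleukin 5, had the largest change of the members with all 8 arrays. It read 7.29, 8.37, 6.82 and 6.79 in the transgenic group, and 5.56, 5.27, 5.72 and 5.47 among controls. The groups were 1.07 apart, and transgenic replicate 2 was more than 1 log2 unit above the next liver. A log2 fold change of 1.81 was estimated (SE 0.31, adjusted p = 0.0149), with a transgenic SD of 0.74 against 0.19 in the controls. Without transgenic replicate 2 it was 1.46 (adjusted p = 0.000398), below the 1.502 of Csf1. The call was lost without transgenic replicate 1 (0.0584) and without control replicates 2 or 4 (0.0640 and 0.0505).

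Csf2rb2 lies next to Csf2rb in the genome, with no other protein-coding gene of the RefSeq table between them. It read 6.57, 7.22, 5.82 and 5.55 in the transgenic group, and 5.29, 5.08, 4.97 and 4.91 among controls. All transgenic livers were again higher, replicate 4 by only 0.26 over the highest control. The log2 fold change was 1.23 (SE 0.31, adjusted p = 0.0491). This call sat at the threshold and was lost in 9 of 17 other settings, and the adjusted p over all 17 ran from 0.0160 to 0.191. The losses include the omission of transgenic replicate 1 (0.136) or of control replicates 1 to 4 (0.0927, 0.120, 0.121 and 0.0910). Centring arrays on their medians (0.0633), trend and robust moderation (0.0523), array weights (0.0509) and a test against a 1.2-fold change (0.191) ended it as well. The paralogs have similar sequences, and a probe set for one may read the other, so the split of signal between them is uncertain. Csf2rb changed by 0.58 more than Csf2rb2 (exact permutation test, p = 0.0571, adjusted p = 0.0952).

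Csf2ra, the chain that binds Csf2 itself, rose least and most evenly. It read 6.97, 6.82, 7.03 and 6.99 in the transgenic group, and 6.39, 6.70, 6.57 and 6.49 among controls. The groups were 0.12 apart, and here transgenic replicate 2 was the lowest of its group. The rise was 0.41 on the log2 scale (SE 0.092, adjusted p = 0.0370). The call was lost after quantile normalization (log2 fold change 0.29, adjusted p = 0.120), with the replicate number as a block (0.0742) and against a 1.2-fold change (0.664). Leaving out transgenic replicate 1 (0.111) or control replicates 1 to 4 (0.0924, 0.05835, 0.0904 and 0.0811) also ended it. The change of Csf2rb exceeded that of Csf2ra by 1.40 log2 units. Within arrays their difference ran from -0.21 to 1.54 in transgenic livers and from -1.43 to -0.83 in controls (exact permutation test, p = 0.0286, adjusted p = 0.0714).

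The transgenic livers differed among themselves in a recurring order. Transgenic replicate 2 was the highest of its group for 5 members, Csf1, Csf2, Csf1r, Csf2rb and Csf2rb2, and the lowest for 3, Il34, Csf3 and Csf2ra. The same liver had the highest means of the macrophage and monocyte marker lists, 2.39 and 3.12 above the control mean. The other transgenic livers stood at 1.07 to 1.45 and at 1.46 to 2.11. Its neutrophil list stood at 0.70, against -0.079 to 0.11 in the others, and its array median of 4.88 was the lowest of the 8. The part of these shifts in the members' values was not tested. Without that liver the same number of members, 5, was called, beside 6.2% of all genes.

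**Figure D3:**
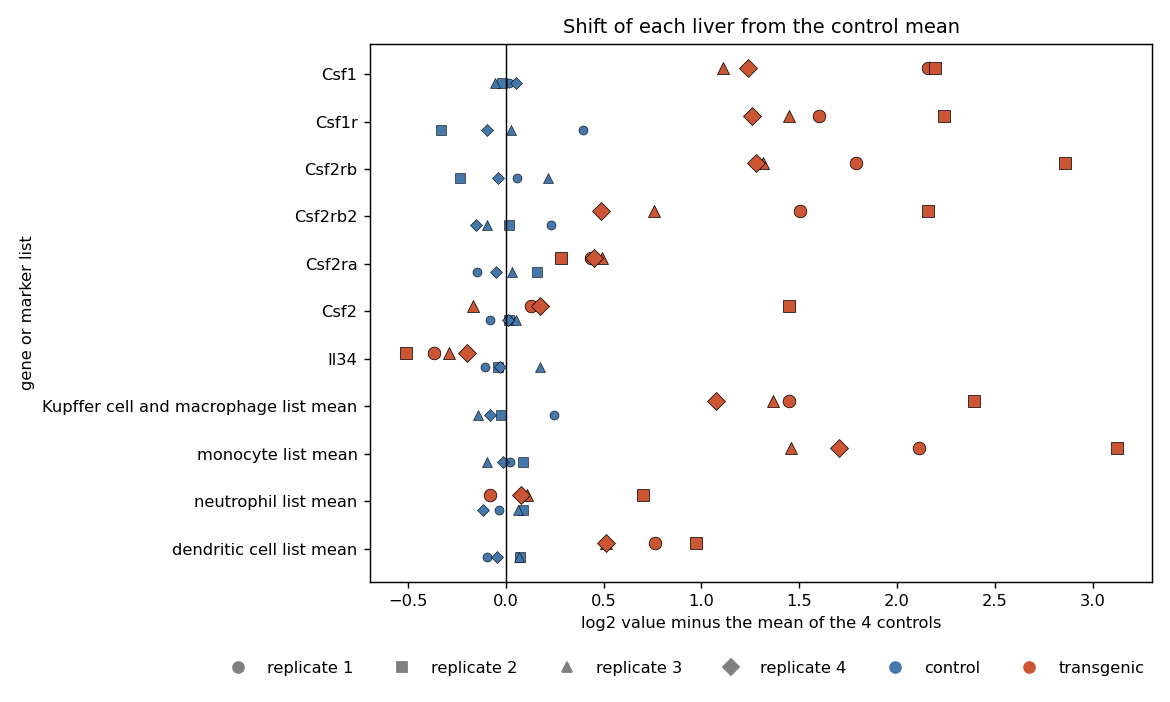
Distance of each liver from the mean of the 4 controls (horizontal axis, log2 units) for 7 members and the means of 4 marker lists, with controls in blue, transgenic livers in orange and symbols for replicate numbers. Transgenic replicate 2 (square) lies farthest right for Csf1r at 2.24, for Csf2rb at 2.86 and for the monocyte list at 3.12, but is lowest for Csf2ra at 0.28.

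Markers of several cell types, among them myeloid cells that carry these receptors, were measured in the same livers, as list means of log2 values. The macrophage list ran from 8.90 to 10.2 in transgenic livers and from 7.69 to 8.08 in controls. Of 8 measured monocyte markers 6 rose, led by the chemokine receptor Ccr2 at 3.72 and the integrin Itgax at 2.46, and the list ran from 5.96 to 7.63 against 4.41 to 4.59. Of 12 neutrophil markers 0 passed limma's test, Mmp8 at 0.90 and Cxcr2 at 0.56 having the largest changes, and the list ran from 4.11 to 4.89 against 4.07 to 4.28. Of 7 dendritic cell markers 3 rose, Cd209a the most at 1.92, and the list ran from 5.17 to 5.63 against 4.56 to 4.73; Clec10a stood at 0.78. Of 9 T and NK cell markers 2 rose, Cd3g at 1.53 and Nkg7 at 1.52, and the list ran from 4.81 to 5.73 against 4.36 to 4.48. Of 7 mast cell and basophil markers 0 passed, with list means of 3.87 to 3.97 against 3.94 to 4.04; Tpsb2 stood at -0.23 and Mcpt8 at -0.21. Of 7 endothelial markers 0 passed (Cdh5 at 0.48, Pecam1 at 0.33), and the list ran from 8.49 to 8.66 against 8.21 to 8.56. Of 8 stellate cell and fibroblast markers 2 rose, among them Col1a1 at 0.71, and Col3a1 stood at 0.66; the list ran from 7.84 to 8.19 against 7.54 to 7.86. Hepatocyte markers, which mark the labelled tissue, had list means of 12.2 to 12.4 in transgenic livers and 12.3 to 12.4 in controls, and 0 of 9 passed (Asgr1 at -0.31, Ttr at -0.29). Among all genes 4.67% were called higher and 1.67% lower at the adjusted threshold. At an unadjusted limma p under 0.05, 2 of 12 neutrophil, 1 of 7 mast cell and basophil, 2 of 7 endothelial and 2 of 9 hepatocyte markers passed, beside 33.6% of all genes. In the other lists 14 of 14 macrophage, 8 of 8 monocyte and 5 of 7 dendritic cell markers did. So did 4 of 9 T and NK cell and 4 of 8 stellate cell and fibroblast markers. The part of these cells in the members' changes was not tested.

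Among the other receptors and ligands of these families, the dendritic cell receptor Flt3 rose and no other of 9 measured genes passed. Flt3 read 5.84, 5.80, 5.97 and 5.93 in the transgenic group, and 4.84, 5.23, 4.97 and 5.30 among controls, and its rise of 0.80 on the log2 scale passed (SE 0.11, adjusted p = 0.00771). Unlike for most receptors above, the transgenic livers lay close together. Its ligand Flt3l stood at 0.051. Csf3r, the receptor of Csf3, stood at 0.37 (adjusted p = 0.302), with transgenic replicate 2 at 5.52 and the other transgenic livers at 4.31 to 4.42. Kit, the receptor of Kitl, stood at 0.20 (adjusted p = 0.253).

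Genes that carry the signal inside the cell rose in part. Among 22 measured genes there were 7 higher calls, 0 lower ones and 15 without a call, with a median log2 fold change of 0.57. Inpp5d, the phosphatase SHIP1 that limits signalling in blood cells, rose by 1.78 (adjusted p = 0.0111), and the exchange factor Vav1 by 1.71 (0.0125). Tyrobp, the adaptor DAP12 that couples to Csf1r signalling, rose by 1.57 (0.0185). The remaining 4 were Jak2, the kinase bound to Csf2rb, at 1.38, the phospholipase Plcg2 at 1.21, the ubiquitin ligase Cbl at 1.10 and the phosphatase Ptpn6 at 0.84. The calls of Inpp5d, Vav1, Tyrobp, Jak2, Plcg2, Cbl and Ptpn6 were lost in 1, 3, 5, 3, 6, 7 and 8 of 17 other settings. Each was lost without control replicate 2 (adjusted p = 0.0520, 0.0576, 0.0617, 0.0589, 0.0989, 0.0923 and 0.113), and all but Inpp5d without transgenic replicate 1 (0.0511 to 0.102). Tyrobp, Plcg2, Cbl and Ptpn6 also lost theirs without control replicates 1, 3 or 4 (0.0546 to 0.0991), and Vav1 and Jak2 without control replicate 3 (0.0514 and 0.0542). Most of these genes are active in many leukocytes, so their values are not specific to colony stimulating factors.

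Of 16 measured transcription factors of myeloid cells 4 rose and 0 fell, with a median of 0.096. Spi1, which encodes PU.1, rose by 1.57 (SE 0.29, adjusted p = 0.0206), Irf8, needed for monocytes and dendritic cells, by 1.01 (0.00894) and Runx1 by 0.93 (0.0344). The other was Zeb2 at 0.84. Irf8 kept its call in all 17 other settings. Spi1 lost it in 6, without transgenic replicate 1 (0.0726), without control replicates 1 to 4 (0.0546, 0.0761, 0.06175 and 0.06185) and against a 1.2-fold change (0.05215). Runx1 lost it in the same 6 (0.0921, 0.0793, 0.101, 0.0783, 0.0788 and 0.155) and with the replicate block (0.0544). Zeb2 lost it without control replicates 2 or 3 (0.0546 and 0.0530) and against a 1.2-fold change (0.0636). Over the 3 lists together 12 of 47 measured pathway genes rose and 0 fell, beside 4.67% of all genes called higher. That count was 6 against a 1.2-fold change, 4 without transgenic replicate 1, and 6, 2, 3 and 6 without control replicates 1 to 4. Of all genes 1.4%, 1.01%, 1.35%, 1.01%, 1.19% and 1.5% were called in these fits, against 6.34% as reported.

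**Figure D4:**
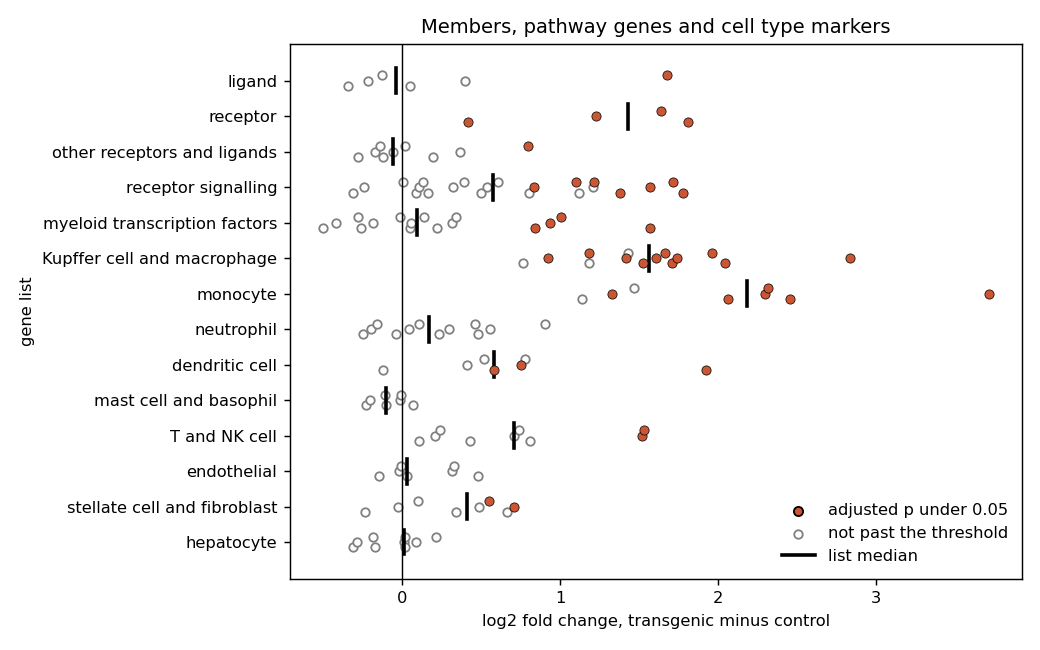
Log2 fold change (horizontal axis, transgenic minus control) of every measured gene in the member, pathway and cell type marker lists, filled where the adjusted p was under 0.05, with a bar at each list median. The receptor list has its median at 1.43, beside 1.57 for the macrophage list and 2.18 for the monocyte list, while the ligand list has its median at -0.037.

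Over all 19938 genes, the profile of Csf1 across the 8 arrays was most like those of Tifa, an adaptor of NF-kB signalling, Cd86, a co-stimulatory molecule of antigen-presenting cells, and Lcp1, an actin-bundling protein of leukocytes. Likeness was the root mean square difference after each gene was centred on its own mean, and it was 0.098, 0.11 and 0.12 log2 units. The nearest to Csf1r were Iqgap1, a cytoskeletal scaffold, the class I gene H2-Q4 and the adhesion receptor Adgre5, at 0.14 each. The measure mainly picks genes with a similar difference between the groups. The log2 fold changes of these 6 genes were between 1.54 and 1.74.

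**Figure D5:**
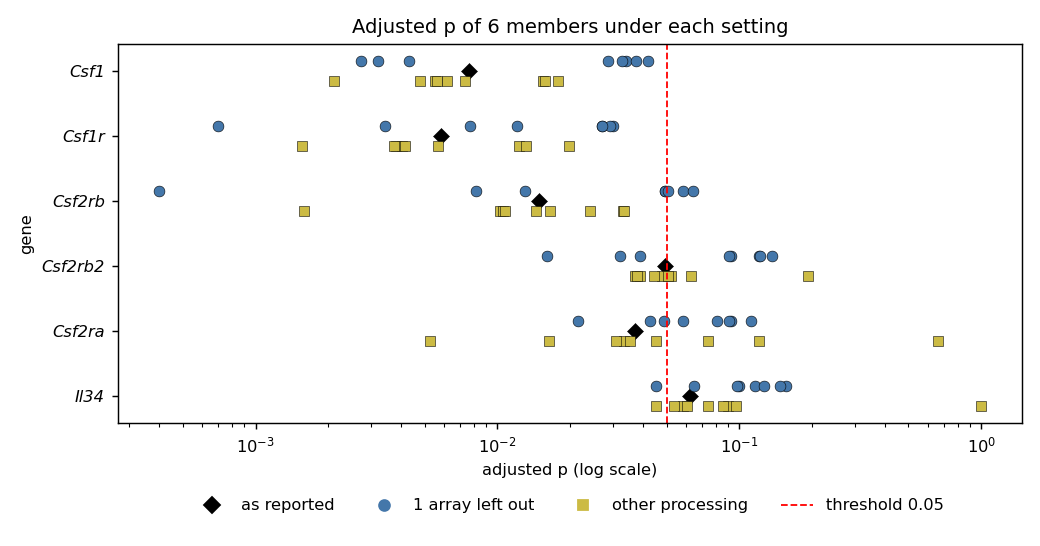
Adjusted p (horizontal axis, log scale) of 6 members as reported (diamond), with 1 array left out (circle) and under other processing (square), with the threshold of 0.05 as a dashed line. Csf1 and Csf1r stay left of the line throughout, Csf2rb crosses it 3 times, and Csf2rb2 and Csf2ra lie on both sides.

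How many members were called depended on the arrays kept. Omitting transgenic replicate 1 gave 2, omitting replicate 2 or 3 gave 5 and omitting replicate 4 gave 6. Without control replicates 1, 2, 3 or 4 it was 3, 2, 3 and 2. Calls among all genes moved in the same fits, to 1.01%, 6.2%, 10.2% and 12.9% without transgenic replicates 1 to 4 and to 1.35%, 1.01%, 1.19% and 1.5% without control replicates 1 to 4. Csf1 and Csf1r were called each time.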

How the data were processed

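Whole-liver RNA of 4 transgenic and 4 control mice was hybridised to 1 array each, and the labels call the arrays biological replicates. The deposited log2 values, 1 per probe set and array, come from the authors' use of Affymetrix Expression Console, which the submitters' processing notes name. Neither its version nor the normalization method is given in the sources used here. Array medians ran from 4.88 to 5.08, and no normalization was added. The number of arrays limits the precision.

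Of 35556 probe sets, 21789 carry 1 gene symbol. Limma 3.58.1 (R 4.3.3) was fitted to these with the group as its only term, two-sided, with Benjamini-Hochberg adjustment over all 21789. Genes were read through their brightest probe set. Steps were tested on simulated data. Differences between 2 genes' changes used exact permutation tests over arrays, adjusted over 5.

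The members, lists, tests and these gene pairs were chosen with earlier results of these data known. Named were all members, the 3 called genes with the largest change in each pathway list, the 2 largest in each marker list, Ikbkb and the 3 profiles most like Csf1 and Csf1r. Csf3r, Kit, Jak2, Plcg2, Cbl, Ptpn6 and Zeb2 were added after their values were seen. Symbols follow the platform annotation; promoter windows are from RefSeq. Some listed genes are not reported here.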

Additional observations from a re-analysis of the deposited data

How the results depend on the processing

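Alternatives were quantile normalization, centring on array medians, a filter on the dimmest 30% or 50%, the mean over probe sets of a gene, trend and robust moderation, array weights, a replicate block, a test against a 1.2-fold change and each array left out. Csf1 and Csf1r were called in all 17. Against a 1.2-fold change 3 members and 6 pathway genes passed, in place of 5 and 12. With 1 array left out, 2 to 6 members and 2 to 18 pathway genes passed, while calls among all genes ran from 202 to 2580 around the reported 1265. Centring gave 715 and the test against a 1.2-fold change 279. The differences between changes ranged from 1.79 to 2.22 for Csf1 and Il34, -0.13 to 0.16 for Csf1 and Csf1r, 1.00 to 1.59 for Csf2rb and Csf2ra, 0.50 to 0.69 for Csf2rb and Csf2rb2, and -0.036 to 0.14 for Csf1r and the macrophage list. Over these omissions the smallest p of the exact permutation test was 0.0286 and the smallest adjusted p 0.0714. These did not hold throughout. Without control replicate 2 the exact p was 0.0286 for Csf1 and Il34 and 0.0857 for Csf2rb and Csf2ra, with an adjusted p of 0.143 for each. The value for Csf1 and Csf1r was -0.088 without control replicate 1. Why calls varied was not tested.

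Deviations of same-numbered livers from their group means correlated at 0.24, -0.030, 0.26 and -0.13 over probe sets for numbers 1 to 4. Differently numbered livers ran from -0.26 to 0.17. Numbers 1 and 3 thus lay above every differently numbered pair, and numbers 2 and 4 lay inside their range. The labels name no pairs, and the main fit did not use the numbers. With the replicate block 4 members, 10 pathway genes and 844 genes in all passed. In the paired form the differences between changes (2.02, 0.039, 1.40, 0.58 and 0.066, by construction those of the unpaired form) had exact p-values of 0.125, 1.00, 0.125, 0.125 and 0.50, where 0.125 is the smallest that 4 pairs allow. Filters on dim probe sets removed Csf2 and Kitl at 30%, and Csf3 as well at 50%. Low readings of Csf2, Csf3 and Kitl limit what can be said of them.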
